A study of Mus musculus with 8 samples.

Results

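The genes described here build the sarcomere, the repeating contractile unit of striated muscle: titin and nebulin, thin filament proteins, myosin light chains and myosin-binding proteins, M-band and Z-disc proteins, and factors that assemble them. The list has 41 genes, chosen by name, and leaves out myosin heavy chains and troponins. Of the 41, 39 had values among 20976 genes in the table, and 35 of these passed the filter on low values, under which at least 4 libraries reach 1 CPM (a gene's value relative to the library total), as did 12910 genes in all. Myl3 and Myoz3 are not analysed here. Tmod4, Mybpc2, Mybpc3 and Myoz1 fell below the filter.

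The RNA came from cultured muscle stem cells, the Pax7-expressing cells that repair muscle, sorted from mice with loxP sites on both alleles of Chd4 (Chd4LoxP/LoxP). Chd4 encodes the nucleosome-remodelling ATPase found in NuRD. After a short expansion in medium with serum and basic FGF, cells received adenovirus with Cre, which removes Chd4 exons 12 to 21, or adenovirus with GFP, and each group has 4 libraries, with 4 mice per condition stated. All 8 libraries thus come from floxed cells exposed to adenovirus, no library holds Cre with an intact Chd4 gene, and the sources used here do not give the mice's strain, age or sex or the time after infection.

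In the sarcomere, thin filaments of actin, tropomyosin and troponin are anchored in the Z-disc by alpha-actinin, and thick filaments of myosin are joined at the M-band. Titin spans from Z-disc to M-band and nebulin runs along the thin filament. Proliferating myoblasts express most of these genes weakly, and switch them on together when they leave the cell cycle and differentiate, under MyoD family and MEF2 transcription factors. Embryonic and cardiac isoforms are expressed early in cultured myotubes, and adult isoforms later.

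Chd4 itself had 15904 to 20121 normalised reads with GFP and 3686 to 5480 with Cre, lower as labelled. Normalised reads are the deposited values per gene, which look like counts scaled between libraries, with totals from 27897860 to 28876348. Libraries were paired by their replicate number. The labels do not say that equal numbers share a mouse, but across genes same-numbered libraries deviated together from their groups (correlations of 0.82 to 0.908). Of the myoblast markers Pax7, Myod1, Myf5, Cdh15, Itga7, Vcam1 and Chrna1, 7 of 7 were detected, with summed levels of 129271 to 147583 normalised reads in GFP and 149584 to 158297 in Cre. Of these, Myf5, Vcam1 and Pax7 fell, by 0.57, 0.30 and 0.14 on the log2 scale (adjusted p = 0.000124, 0.0019 and 0.0354), and Myod1 and Chrna1 rose, by 0.20 and 0.21 (adjusted p = 0.0425 and 0.0137). The calls of Pax7, Myod1 and Chrna1 were lost in some alternatives with the block (adjusted p up to 0.173, 0.191 and 0.0649). Their part in the sarcomere changes was not tested. In bulk RNA, a change in the share of differentiated cells and a change in RNA per cell cannot be told apart.

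Most sarcomere genes were modestly higher after Cre. Of the 35 genes tested, 28 rose, Nebl and Tpm1 fell, and 5 (Tpm3, Myl2, Mybpc1, Obsl1 and Myot) did not pass (limma with the pair as a block, Benjamini-Hochberg adjusted p under 0.05 over all 12910 genes). Over all genes tested the same fit called 22.2% higher and 21.7% lower, or 43.9% in either direction. The median log2 change of the 35 genes was 0.32, or 24.4% more, against a median of -0.00 over all genes. The rises ran from 10.1% for Tpm2 to 53.1% for Actn3. None of the 35 genes tested changed by 1 log2 unit or more. Genes called higher by at least 1 log2 unit made up 0 of the 35 and 2.58% of all genes. With 35 genes these shares cannot be told apart.

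Of the 35 genes tested, 24 (68.6%) were higher in Cre in 4 of 4 pairs, against 27.9% of all genes tested. Among those that rose, Mybph, Tcap, Des and Xirp2 were higher in 3 of 4. For every one of the 35 genes the Cre and GFP values overlapped when pairs were ignored, while 4.41% of all genes were higher and 6.17% lower without overlap. The calls therefore rest on the pairing. Without the block no sarcomere gene passed (limma, adjusted p from 0.213 to 0.984, 1.08% of all genes called), and 1, Actn3, had an unadjusted p under 0.05, against 16.7% of all genes.

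**Figure D1:**
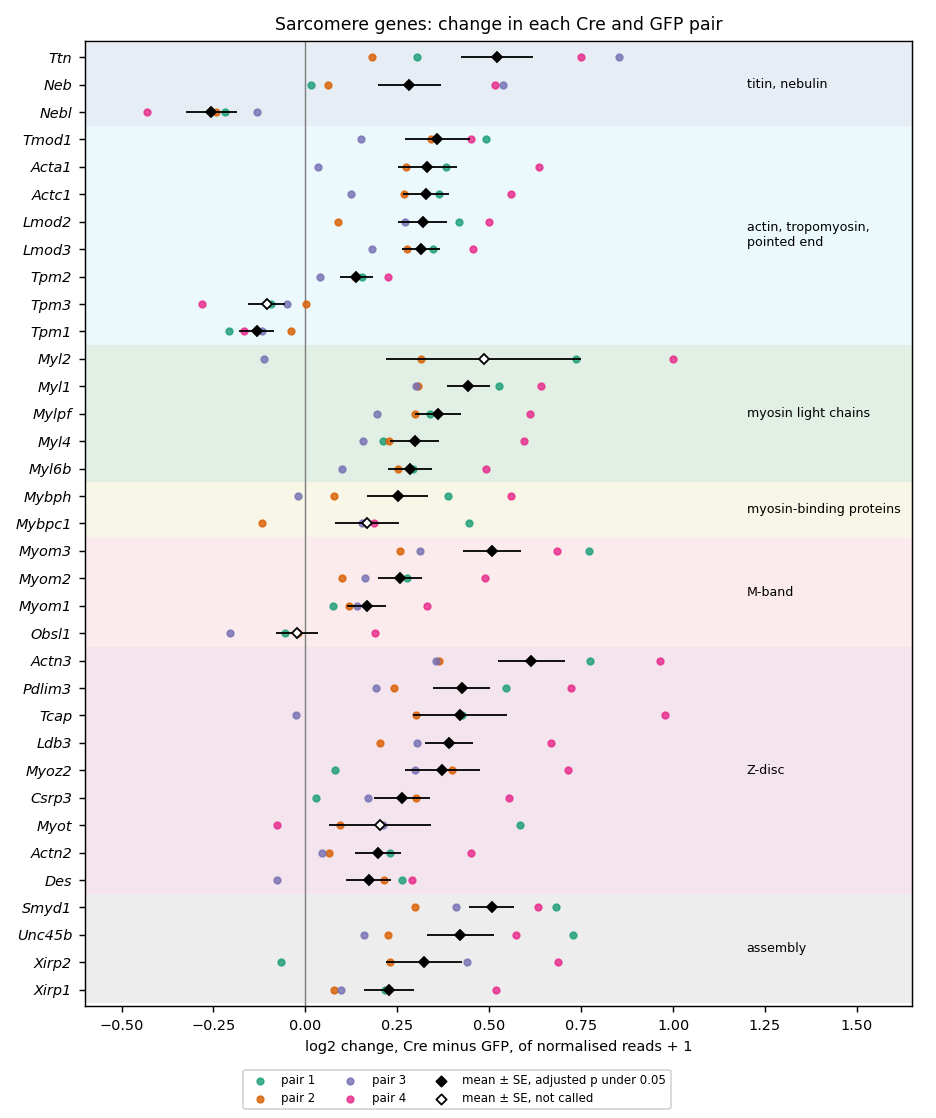
Log2 change from GFP to Cre for the 35 sarcomere genes tested, ordered by role. Coloured points are the 4 pairs and diamonds the mean ± SE of the paired fit, filled where the adjusted p was under 0.05; most points lie right of 0, Nebl and Tpm1 lie left of it, and pair 4 is the rightmost point for 24 genes.

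Titin, the giant spring protein that spans the sarcomere from Z-disc to M-band, was among the larger changes. Ttn stood at 16767, 66441, 64199 and 20192 normalised reads in GFP libraries 1 to 4 and at 20686, 75266, 115893 and 33959 in Cre libraries 1 to 4. Each Cre library exceeded its GFP partner, and libraries 2 and 3 of both groups stood above libraries 1 and 4. Its log2 change was 0.52 ± 0.10 (SE; adjusted p = 0.00187), with 0.30, 0.18, 0.85 and 0.75 in pairs 1 to 4. In GRCm38, with gene bounds as deposited by the authors, Ttn spans chr2:76703980-76982547, Actn3 chr19:4861223-4877909, Smyd1 chr6:71213940-71322233, Nebl chr2:17343909-17731043 and Tpm1 chr9:67022590-67049406. Neb, the nebulin that runs along skeletal thin filaments, stood at 13245, 37265, 29819 and 16038 normalised reads in GFP libraries 1 to 4 and at 13398, 38874, 43283 and 22932 in Cre libraries 1 to 4. Pairs 1 and 2 differed little (0.02 and 0.06) and pairs 3 and 4 more (0.54 and 0.52), for a change of 0.28 ± 0.09 (adjusted p = 0.0221). That call was lost without pair 3, without pair 4 and without the intensity trend (adjusted p up to 0.134).

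Nebl, which encodes nebulette, a nebulin relative best known from the heart Z-disc, went the other way. It stood at 205, 756, 575 and 1269 normalised reads in GFP libraries 1 to 4 and at 176, 639, 525 and 941 in Cre libraries 1 to 4. Every Cre library lay below its partner, and library 4 was the highest of both groups, unlike for Neb. The log2 change was -0.26 ± 0.07 (adjusted p = 0.0134), a call lost without pair 4 (adjusted p = 0.103). Relative to Nebl, Neb was higher in Cre by 0.54 ± 0.33 log2 units (SD, n = 4 pairs), in 4 of 4 pairs (two-sided exact permutation test by sign flips, p = 0.125, the smallest that 4 pairs allow). Since Neb rose and Nebl fell in each pair, that outcome was fixed by the values above and adds no support.

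The sarcomeric actins Acta1 (skeletal) and Actc1 (cardiac, also the main isoform of early myotubes) rose together. Acta1 stood at 14959, 66715, 61337 and 31478 normalised reads in GFP libraries 1 to 4 and at 19506, 80609, 62827 and 48898 in Cre libraries 1 to 4. The gain ranged from 0.03 in pair 3 to 0.64 in pair 4, with a mean of 0.33 ± 0.08 (adjusted p = 0.00729; 0.0535 without the intensity trend, where it was not called). Actc1 stood at 7833, 29696, 20440 and 20327 normalised reads in GFP libraries 1 to 4 and at 10071, 35785, 22283 and 29924 in Cre libraries 1 to 4. Its change was 0.33 ± 0.06 (adjusted p = 0.00199), nearly that of Acta1. Actin genes have closely similar coding sequences, so the division of reads between them is uncertain.

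Promoter sequences were available from RefSeq (GRCm38.p6) for 32 of the 41 genes, as 250 bases before the annotated start. For the 28 of these that were tested, there were 35 annotated starts. Those of Acta1, Actc1 and Mylpf, the 3 genes with the highest level per kilobase, of Ttn and Des, and of Tpm1, which fell, are shown so that genes that rose can be set beside one that fell. Capitals mark matches, on either strand, to the E-box CANNTG bound by MyoD family factors, the MEF2 site, the CArG box bound by SRF and the TEAD motif CATTCC, and on the gene's strand to TATAAA. They lie at chr8:123894776-123895025 (minus strand) for Acta1, chr2:114052876-114053125 (minus strand) for Actc1, chr7:127211358-127211607 (plus strand) for Mylpf, chr2:76982548-76982797 (minus strand) for Ttn, chr1:75360042-75360291 (plus strand) for Des and chr9:67049214-67049463 (minus strand) for Tpm1.
Acta1: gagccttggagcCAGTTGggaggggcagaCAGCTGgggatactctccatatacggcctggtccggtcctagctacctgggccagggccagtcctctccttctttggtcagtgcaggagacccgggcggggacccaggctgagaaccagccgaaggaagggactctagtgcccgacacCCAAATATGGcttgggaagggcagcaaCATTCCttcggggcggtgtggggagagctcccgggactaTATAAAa
Actc1: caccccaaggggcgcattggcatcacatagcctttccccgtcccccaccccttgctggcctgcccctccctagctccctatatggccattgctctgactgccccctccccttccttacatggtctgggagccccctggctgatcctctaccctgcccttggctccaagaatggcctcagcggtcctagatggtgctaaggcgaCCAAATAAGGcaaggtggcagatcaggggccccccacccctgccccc
Mylpf: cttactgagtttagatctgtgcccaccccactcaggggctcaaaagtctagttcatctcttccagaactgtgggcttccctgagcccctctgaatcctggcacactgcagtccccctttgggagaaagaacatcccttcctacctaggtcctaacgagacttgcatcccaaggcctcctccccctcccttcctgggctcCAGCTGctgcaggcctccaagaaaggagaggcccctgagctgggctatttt
Ttn: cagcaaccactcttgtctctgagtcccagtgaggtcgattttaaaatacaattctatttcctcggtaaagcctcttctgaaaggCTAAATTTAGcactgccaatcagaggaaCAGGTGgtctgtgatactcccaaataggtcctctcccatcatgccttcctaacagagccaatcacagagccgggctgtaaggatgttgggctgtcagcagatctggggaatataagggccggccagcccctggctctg
Des: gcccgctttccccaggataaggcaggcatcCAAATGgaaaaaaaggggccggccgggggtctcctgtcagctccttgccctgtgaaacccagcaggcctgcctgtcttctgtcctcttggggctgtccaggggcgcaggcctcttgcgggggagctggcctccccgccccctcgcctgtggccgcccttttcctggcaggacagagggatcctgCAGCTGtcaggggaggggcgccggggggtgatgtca
Tpm1: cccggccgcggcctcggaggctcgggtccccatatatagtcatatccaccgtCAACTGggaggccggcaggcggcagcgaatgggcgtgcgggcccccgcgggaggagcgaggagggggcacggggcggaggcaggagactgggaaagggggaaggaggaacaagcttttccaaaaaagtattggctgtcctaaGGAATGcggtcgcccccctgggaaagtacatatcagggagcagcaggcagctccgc

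Acta1 and Actc1 each hold 1 CArG box, and Acta1, Mylpf, Ttn, Des and Tpm1 hold at least 1 E-box. The E-box CANNTG was in 27 of 35 (77.1%) sarcomere promoters and 66.2% of all 32851 promoters. Its form CAGCTG, which is counted in CANNTG too, was in 12 of 35 (34.3%) sarcomere promoters and 13% of all 32851 promoters. CAGGTG, or CACCTG on the other strand, was in 7 of 35 (20%) sarcomere promoters and 17.2% of all 32851 promoters. The MEF2 site was in 4 of 35 (11.4%) sarcomere promoters and 1.69% of all 32851 promoters, and those 4 belong to Ttn, Myom3, Myoz2 and Xirp2. The CArG box was in 6 of 35 (17.1%) sarcomere promoters and 1.47% of all 32851 promoters, belonging to the 5 genes Acta1, Actc1, Ldb3, Myom1 and Nebl. Ldb3 counts more than once, because its annotated starts lie close together and share the same box. Nebl also has several starts among the 35, so the promoters counted here are not all independent. The TEAD motif CATTCC was in 7 of 35 (20%) sarcomere promoters and 12.6% of all 32851 promoters, and TATAAA in 1 of 35 (2.86%) sarcomere promoters and 7.59% of all 32851 promoters. These are matches of letters, not measured binding sites, and Nebl and Tpm1, which fell, hold some of them as well.

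The tropomyosins, which wind along actin filaments, split by isoform gene. Tpm2, the beta-tropomyosin of slow muscle and myotubes, stood at 13556, 30395, 25355 and 18346 normalised reads in GFP libraries 1 to 4 and at 15081, 33382, 26054 and 21449 in Cre libraries 1 to 4. It was higher in each pair, by 0.14 ± 0.05 (adjusted p = 0.0306), but was not called without pair 1, 2 or 4, after rescaling to equal totals or without the intensity trend (adjusted p up to 0.125). Tpm1, whose transcripts serve muscle and non-muscle filaments, stood at 31181, 42738, 46915 and 52285 normalised reads in GFP libraries 1 to 4 and at 27015, 41602, 43206 and 46574 in Cre libraries 1 to 4. All Cre libraries were below their partners, with a change of -0.13 ± 0.05 (adjusted p = 0.0459). That call was lost in 7 of 12 alternatives with the block, among them the omission of any pair (adjusted p up to 0.177). Tpm3, which also has muscle and non-muscle products, differed by -0.11 ± 0.05 (95% confidence interval -0.22 to 0.01, adjusted p = 0.122).

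Genes for proteins of the pointed end, where thin filament length is set, rose in each tested case. Lmod2 and Lmod3 encode leiomodins, which nucleate and elongate actin filaments in muscle. Lmod3 stood at 927, 3943, 3618 and 1266 normalised reads in GFP libraries 1 to 4 and at 1180, 4772, 4103 and 1737 in Cre libraries 1 to 4, a change of 0.32 ± 0.05 (adjusted p = 0.000792). Lmod2, at 1462 ± 953 in GFP and 1732 ± 965 in Cre (SD, n = 4 each), changed by 0.32 ± 0.07 (adjusted p = 0.00332). Tmod1, a tropomodulin that caps the pointed end, changed by 0.36 ± 0.09 (adjusted p = 0.00775). It overlaps Tstd2 on the opposite strand, which had 968 normalised reads on average against 292 for Tmod1, and although the library was stranded, the sources do not say whether counting used strand, so its value is uncertain. Tmod4, the skeletal muscle tropomodulin, had at most 33 normalised reads in any library.

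Myosin light chains, which bind the neck of the myosin head, rose in 4 of 5 tested genes. Mylpf, the fast skeletal regulatory light chain, stood at 12016, 41381, 39559 and 13859 normalised reads in GFP libraries 1 to 4 and at 15185, 50832, 45303 and 21184 in Cre libraries 1 to 4. Its change of 0.36 ± 0.06 (adjusted p = 0.00116) was present in each pair. Myl1, the fast essential light chain, stood at 2537, 12780, 9109 and 3784 normalised reads in GFP libraries 1 to 4 and at 3655, 15804, 11212 and 5898 in Cre libraries 1 to 4. It changed by 0.44 ± 0.06 (adjusted p = 0.000217). Myl4, the embryonic and atrial essential light chain, stood at 4605, 20491, 17733 and 5962 normalised reads in GFP libraries 1 to 4 and at 5326, 23987, 19782 and 9000 in Cre libraries 1 to 4, with a change of 0.30 ± 0.07 (adjusted p = 0.00454). Myl6b, an essential light chain of slow muscle and non-muscle cells, changed by 0.28 ± 0.06 (adjusted p = 0.00351). All 4 kept their calls in the 12 alternatives with the block.

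Myl2, the regulatory light chain of slow muscle and heart ventricle, was uneven between pairs. It stood at 2, 89, 119 and 2 normalised reads in GFP libraries 1 to 4 and at 4, 111, 110 and 5 in Cre libraries 1 to 4. Pairs 2 and 3 held 89 to 119 normalised reads and pairs 1 and 4 at most 5. Its change was 0.48 ± 0.27 (95% confidence interval -0.10 to 1.07, adjusted p = 0.165), and values as low as the 2 to 5 in pairs 1 and 4 are imprecise.

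Among the myosin-binding proteins, which decorate the thick filament, Mybph stood at 1460, 7552, 8259 and 2685 normalised reads in GFP libraries 1 to 4 and at 1910, 7964, 8143 and 3957 in Cre libraries 1 to 4. It was higher in pairs 1, 2 and 4 and level in pair 3 (-0.02), with a mean change of 0.25 ± 0.08 (adjusted p = 0.0301). It was not called without pair 1 or 4, without a filter, with voom or without the intensity trend (adjusted p up to 0.145). It overlaps Adora1 on the other strand, at 4.05% of its level. Mybpc1, the slow skeletal myosin-binding protein C, stood at 71, 1738, 2619 and 173 normalised reads in GFP libraries 1 to 4 and at 97, 1600, 2916 and 197 in Cre libraries 1 to 4. Libraries 2 and 3 held far more than libraries 1 and 4, and the Cre change of 0.17 ± 0.09 did not pass (95% confidence interval -0.03 to 0.36, adjusted p = 0.149). The fast form Mybpc2 had 0 to 17 normalised reads and the cardiac form Mybpc3 0 to 4.

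At the M-band, the 3 myomesins, which cross-link thick filaments, rose. Myom3, the myomesin of slow and intermediate fibres, stood at 1873, 6646, 6510 and 3023 normalised reads in GFP libraries 1 to 4 and at 3197, 7951, 8087 and 4862 in Cre libraries 1 to 4, and changed most of the 3, by 0.51 ± 0.08 (adjusted p = 0.000587). Myom2, the fast-fibre and heart form, changed by 0.26 ± 0.06 (adjusted p = 0.00612), from 4336 ± 3090.1 to 4966 ± 3198 (SD, n = 4 each). Myom1, expressed in all striated muscle, changed by 0.17 ± 0.05 (adjusted p = 0.028), a call lost without pair 2, 3 or 4 and without the intensity trend (adjusted p up to 0.141). Obsl1, an obscurin relative that is also expressed outside muscle, stood at 4762, 10591, 10657 and 6853 normalised reads in GFP libraries 1 to 4 and at 4579, 10438, 9251 and 7820 in Cre libraries 1 to 4. It was lower in 3 of 4 pairs and higher in pair 4, for -0.02 ± 0.06 (95% confidence interval -0.15 to 0.11, adjusted p = 0.779).

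**Figure D2:**
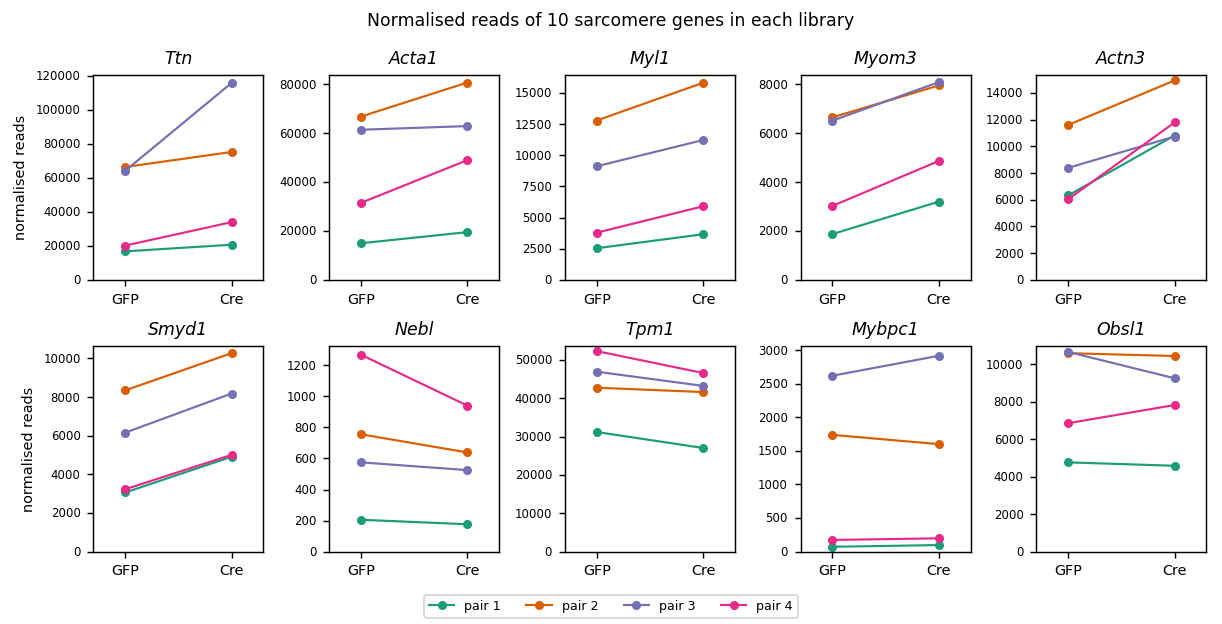
Normalised reads of 10 sarcomere genes in each library, on linear axes from 0, with a line joining the GFP and Cre library of each pair. The genes were chosen after their values were seen. Lines of the first 6 climb from GFP to Cre and those of Nebl and Tpm1 descend, while the distance between pairs exceeds the slope for most genes, as for Mybpc1, which ranged from 71 to 2916.

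The Z-disc held the largest change among the genes tested. Actn3, the alpha-actinin of fast fibres that cross-links thin filaments, stood at 6323, 11605, 8391 and 6037 normalised reads in GFP libraries 1 to 4 and at 10813, 14937, 10739 and 11789 in Cre libraries 1 to 4. The 4 pairs rose by 0.77, 0.36, 0.36 and 0.97, and the mean was 0.61 ± 0.09 (adjusted p = 0.000396, without the block 0.213). Actn2, the isoform of all striated muscle, stood at 1336, 7855, 7346 and 4304 normalised reads in GFP libraries 1 to 4 and at 1567, 8211, 7575 and 5882 in Cre libraries 1 to 4. It changed by 0.20 ± 0.06 (adjusted p = 0.0281), and lost its call without pair 1 or 4 and without the intensity trend (adjusted p up to 0.135).

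The PDZ-LIM proteins Ldb3 and Pdlim3, which tie alpha-actinin to other Z-disc proteins, rose by 0.39 ± 0.07 (adjusted p = 0.000919) and 0.43 ± 0.08 (adjusted p = 0.0015). Ldb3 went from 4461 ± 2184 to 5683 ± 2255 and Pdlim3 from 3929 ± 1955 to 5016 ± 1806 normalised reads (SD, n = 4 each). Both were higher in 4 of 4 pairs and kept their calls in the 12 alternatives with the block. Tcap, the titin cap, stood at 226, 1198, 1156 and 170 normalised reads in GFP libraries 1 to 4 and at 304, 1476, 1135 and 336 in Cre libraries 1 to 4. It changed most in pair 4 (0.98) and was level in pair 3 (-0.03). The mean of 0.42 ± 0.13 passed (adjusted p = 0.0218), though not without pair 4, with voom or without the intensity trend (adjusted p up to 0.0952).

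Csrp3, the muscle LIM protein, changed by 0.26 ± 0.08 (adjusted p = 0.0175) and Myoz2, a calcineurin-binding Z-disc protein, by 0.37 ± 0.10 (adjusted p = 0.0128). Both were higher in 4 of 4 pairs but were not called without pair 2 or 4 (adjusted p up to 0.0862 for Csrp3, which also lost its call without the intensity trend, and 0.0664 for Myoz2). Myoz1, the fast-fibre relative, was below the filter, with 2, 10, 17 and 11 normalised reads in GFP and 22, 31, 22 and 13 in Cre libraries 1 to 4. Its log2 changes in pairs 1 to 4 were 2.94, 1.54, 0.35 and 0.22, imprecise at such low values and not tested. Myot, which encodes myotilin, stood at 11, 344, 322 and 57 normalised reads in GFP libraries 1 to 4 and at 17, 367, 373 and 54 in Cre libraries 1 to 4, and its change of 0.20 ± 0.14 did not pass (95% confidence interval -0.10 to 0.51, adjusted p = 0.265). Des, the intermediate filament protein that links Z-discs, stood at 23794, 35023, 33269 and 23167 normalised reads in GFP libraries 1 to 4 and at 28553, 40593, 31537 and 28301 in Cre libraries 1 to 4. It was higher in 3 of 4 pairs, by 0.17 ± 0.06 on average (adjusted p = 0.0447), and lost its call in 6 of 12 alternatives with the block, without pair 1, 2 or 4 among them (adjusted p up to 0.168).

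The 4 genes of assembly and turnover rose. Smyd1, a muscle methyltransferase that acts in myosin folding and thick filament assembly, stood at 3059, 8346, 6155 and 3226 normalised reads in GFP libraries 1 to 4 and at 4908, 10270, 8181 and 5005 in Cre libraries 1 to 4. It changed by 0.51 ± 0.06 with 0.68, 0.30, 0.41 and 0.63 in pairs 1 to 4, and had the smallest adjusted p of the list (0.000132). Krcc1 overlaps it on the other strand, at 38.7% of its level. Unc45b, the myosin chaperone that works with Hsp90, stood at 275, 1020, 817 and 598 normalised reads in GFP libraries 1 to 4 and at 456, 1193, 913 and 890 in Cre libraries 1 to 4, a change of 0.42 ± 0.09 (adjusted p = 0.00413). The Xin proteins Xirp1 and Xirp2, which bind actin at sites of assembly and repair, changed by 0.23 ± 0.07 (adjusted p = 0.0189) and 0.32 ± 0.10 (adjusted p = 0.0266). Xirp1 was not called without pair 4, nor Xirp2 without pair 2, 3 or 4, and neither without the intensity trend (adjusted p up to 0.0931 and 0.136).

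The pairs differed in size of change. The median log2 change of the 35 genes was 0.34 in pair 1, 0.23 in pair 2, 0.16 in pair 3 and 0.55 in pair 4, while the median over all genes lay between -0.01 and 0.01. Higher values in Cre were found for 30, 31, 27 and 31 of the 35 genes. Pair 4 gave the largest increase for 24 of them. Leaving out pair 1, 2, 3 or 4 left 24, 22, 25 and 17 sarcomere genes higher, where 20.5%, 17.9%, 19.3% and 17.5% of all genes were higher. The same fits left 1, 1, 1 and 0 sarcomere genes lower, where 18.3%, 17.8%, 18.4% and 16.3% of all genes were lower. With voom, 26 rose and 2 fell, where 20.2% of all genes were higher and 24.8% lower. Without the intensity trend 17 rose and 1 fell, where 18.6% of all genes were higher and 18.1% lower.

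The level of the sarcomere genes varied more between replicate numbers than between Cre and GFP. For all 35 genes tested, the range over the 4 GFP libraries exceeded the Cre change on the log2 scale. The measures are unlike, since a highest-to-lowest range is set against a mean of 4 paired differences. The highest GFP library stood 4.25-fold above the lowest for the median sarcomere gene and 1.4-fold for the median of all genes. The same figures were 4.04-fold and 1.39-fold in Cre. Library 1 was the lowest for 31 genes in GFP and 32 in Cre, and library 2 the highest for 25 and 24. For these counts, and for ranges above the Cre change, the share of all genes was not computed. Libraries 2 and 3 both stood above libraries 1 and 4 for 32 genes in GFP and 29 in Cre, against 18% and 20.7% of all genes.

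Transcripts of the sex chromosomes split the libraries the same way. Xist had between 40670 and 49984 normalised reads in libraries 1 and 4 and at most 12 in libraries 2 and 3, and the Y-linked Ddx3y had at most 4 in libraries 1 and 4 and between 3141 and 3823 in libraries 2 and 3. The part of sex in the sarcomere levels was not tested, and with 2 pairs of each kind it cannot be told apart from other differences between pairs. The genes with the widest range over the GFP libraries were Myl2 at 59.5-fold, Mybpc1 at 36.9-fold, Myot at 31.3-fold and Xirp2 at 13.8-fold. Myl2 and Mybpc1 encode slow-muscle isoforms, but Tpm2 and Myom3, also of slow muscle, ranged only 2.24-fold and 3.55-fold. The narrowest ranges were those of Tpm3 at 1.15-fold, Des at 1.51-fold, Tpm1 at 1.68-fold and Actn3 at 1.92-fold. Tpm1 and Tpm3 are expressed outside muscle, and Des is already expressed in proliferating myoblasts, while Actn3 is a fast-fibre isoform. The part of such traits in the ranges was not tested.

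**Figure D3:**
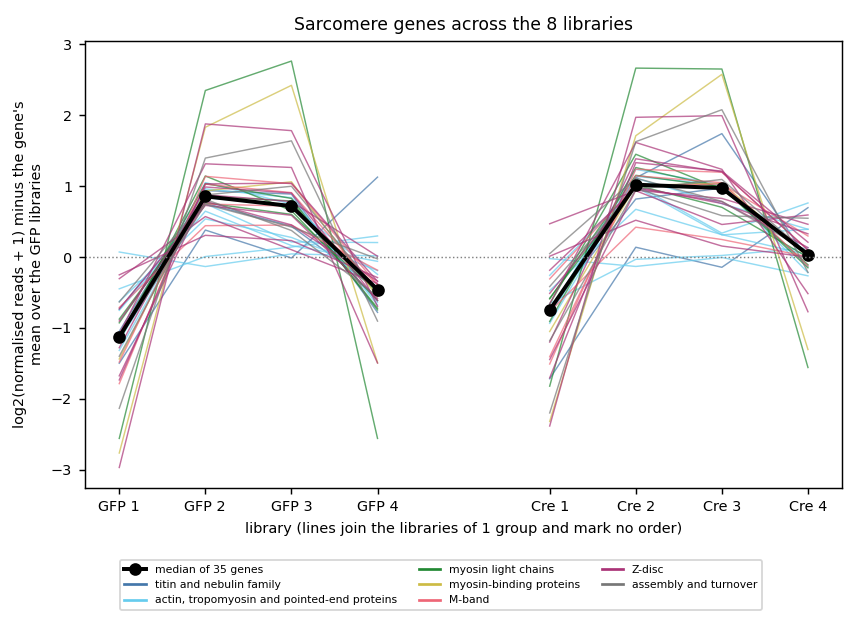
Level of each of the 35 sarcomere genes (thin lines, coloured by role) in the 8 libraries, as log2(normalised reads + 1) minus the gene's mean over the GFP libraries, with the median of the genes in black. Libraries 2 and 3 stand above 1 and 4 in both groups, and the black points are higher in Cre than in GFP at each number.

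Levels can be compared between genes only per length of transcript, here as normalised reads per kilobase of exon in GFP (mean ± SD, n = 4). Acta1 was highest at 28399.9 ± 16019, followed by Mylpf at 25145 ± 15001, Actc1 at 12098 ± 5547, Des at 7675 ± 1653, Tpm2 at 7533 ± 2559.8 and Tpm1 at 6674 ± 1382. Neighbours among these 6 differed by less than the larger of their SDs. These SDs are spreads between libraries that the genes share, so they do not measure how firm the order is within a library. Alpha-actinin 3, at 2788 ± 885 for Actn3, stood above alpha-actinin 2, at 1373 ± 796 for Actn2. Titin, at 359 ± 232 for Ttn, stood below nebulin, at 906 ± 428 for Neb. Nebl, Myl2 and Tmod1 were the lowest tested, at 46 ± 29, 27.2 ± 30.8 and 65.3 ± 24.9. The union of exons is used as length, so genes with long untranslated or alternative exons read low on this scale.

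**Figure D4:**
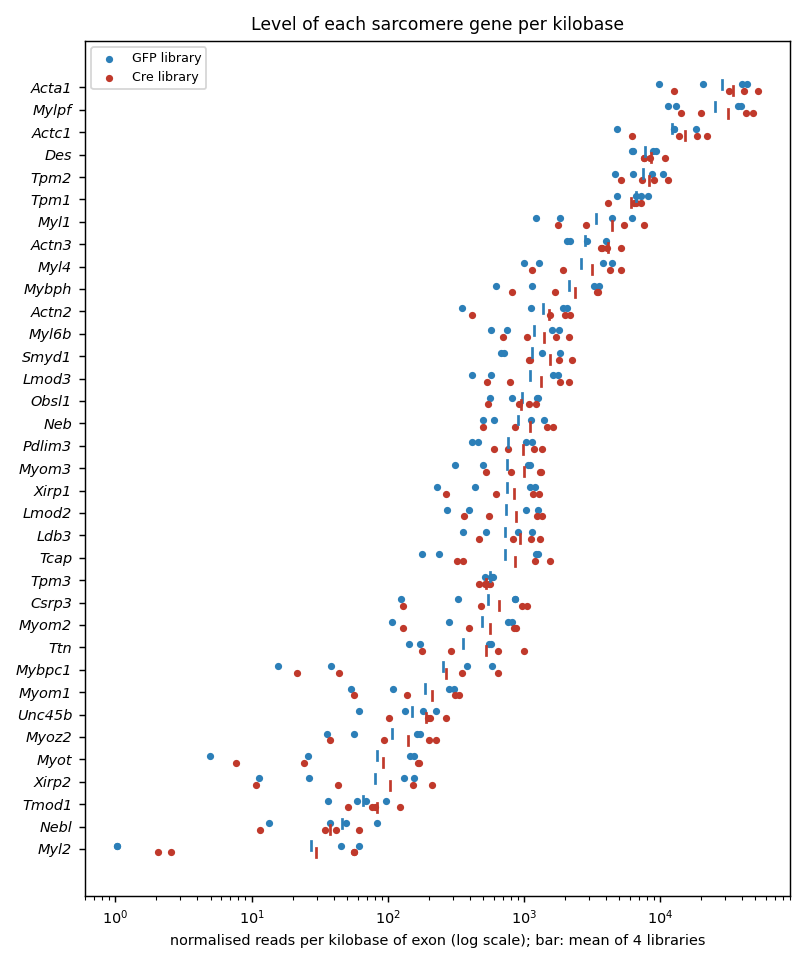
Normalised reads per kilobase of exon on a log axis for each sarcomere gene tested, with 4 GFP and 4 Cre libraries as points and the group mean as a bar. Acta1, Mylpf and Actc1 are at the top and Nebl and Myl2 at the bottom, and the points of the 2 groups overlap for every gene.

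Relatives of the sarcomere genes that serve smooth muscle or the cytoplasm of all cells fell more often than they rose. Of 21 such genes, 19 were tested, 2 rose (Myl9 and Myl12b) and 8 fell (Actb, Actn1, Actn4, Tpm4, Csrp2, Pdlim1, Vim and Smyd2), with a median of -0.06. Over all genes tested, 22.2% were called higher and 21.7% lower. Besides Actn4, the calls of Csrp2, Pdlim1 and Smyd2 were lost in some alternatives with the block (adjusted p up to 0.122, 0.0678 and 0.0702). Vim, the intermediate filament of mesenchymal cells and myoblasts, was at 119008 ± 18529.8 in GFP and 101468 ± 18277 in Cre (SD, n = 4 each) and changed by -0.23 ± 0.06 on the log2 scale (adjusted p = 0.0068). The cytoplasmic actin Actb was at 63438 ± 13872 in GFP and 51412 ± 8769.7 in Cre, a change of -0.29 ± 0.05 (adjusted p = 0.00158). The non-muscle alpha-actinin Actn4 changed by -0.14 ± 0.04 (adjusted p = 0.0221; up to 0.0795 without pair 1, 3 or 4 or the intensity trend), and the smooth muscle actin Acta2, abundant in myoblasts, by 0.01 ± 0.07 (95% confidence interval -0.15 to 0.16, adjusted p = 0.948). The other cytoplasmic actin, Actg1, was listed at only 26 to 67 normalised reads, and values of paralogs that share reads are uncertain.

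Ratios within a library compare a muscle form with its relative. The log2 ratio of Acta1 to Actb was higher in Cre by 0.62 ± 0.25, Actn3 to Actn4 by 0.76 ± 0.34, Actn2 to Actn1 by 0.41 ± 0.20, Tpm2 to Tpm4 by 0.43 ± 0.11, Tpm2 to Tpm1 by 0.27 ± 0.12 and Des to Vim by 0.41 ± 0.14 (SD, n = 4 pairs). Each was higher in 4 of 4 pairs. These pairs of genes, and Neb with Nebl, were chosen after their values were seen. For each of the 7 ratios the two-sided exact permutation test gave p = 0.125 (adjusted 0.125), the smallest that 4 pairs can give. That value follows whenever 4 of 4 pairs go the same way.

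**Figure D5:**
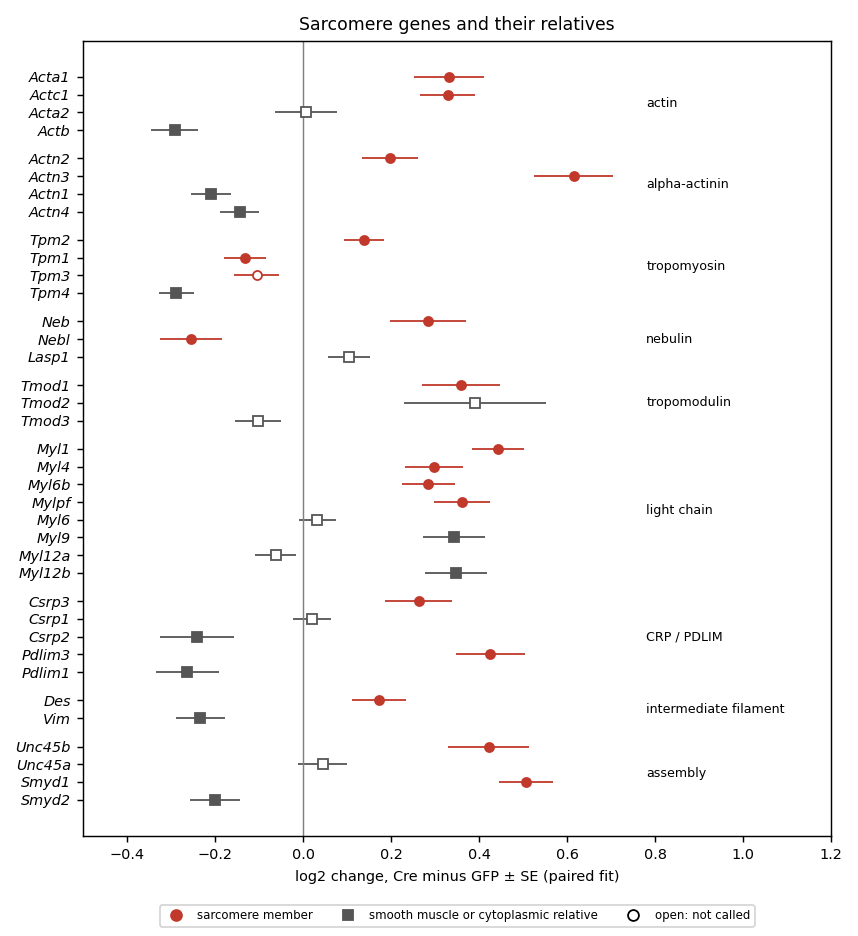
Log2 change from GFP to Cre ± SE (paired fit) of sarcomere genes (red circles) and of their smooth muscle or cytoplasmic relatives (grey squares), by family. Filled symbols had an adjusted p under 0.05; muscle actins, alpha-actinins and desmin lie right of 0 and Actb, Actn1, Actn4, Tpm4 and Vim left of it, while Myl9 and Myl12b lie right of 0.

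Other proteins of the sarcomere and its surroundings also rose in most cases. Of 36 such genes (obscurin, filamin, small heat shock proteins, ubiquitin ligases and others), 35 were tested, 23 rose, Pdlim5 fell and 11 did not pass, with a median log2 change of 0.27. The same fit called 22.2% of all genes higher and 21.7% lower. The call of Pdlim5 was lost in 5 of 12 alternatives with the block (adjusted p up to 0.103). Among those with the most reads, Flnc, the muscle filamin, changed by 0.27 ± 0.05 (adjusted p = 0.00239), Hspb8, a small heat shock protein of Z-disc repair, by 0.35 ± 0.06 (adjusted p = 0.00151) and Palld, the actin-bundling palladin, by 0.46 ± 0.06 (adjusted p = 0.000115). Ankrd1, a titin-binding stress protein with more reads than any other of them, changed by -0.03 ± 0.05 (95% confidence interval -0.14 to 0.08, adjusted p = 0.653). Without the block 1 of the genes passed, Mylk2, the skeletal myosin light chain kinase, which was singled out after its values were seen. It stood at 251, 265, 237 and 237 normalised reads in GFP libraries 1 to 4 and at 674, 536, 469 and 469 in Cre libraries 1 to 4, with no overlap between groups, a change of 1.10 ± 0.09 (adjusted p = 1.48e-05, without the block 0.0164).

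Myosin heavy chains and troponins, the contractile partners left out of the list, rose in 10 of 14 tested genes, while 4 did not pass, with a median of 0.34. Among all genes, 22.2% were called higher and 21.7% lower. The embryonic heavy chain Myh3 changed by 0.26 ± 0.07 (adjusted p = 0.00915; 0.0508 without the intensity trend, where it was not called) and the slow troponin Tnni1 by 0.43 ± 0.08 (adjusted p = 0.00121). Of 14 tested muscle transcription factors and inhibitors, 8 rose and 3 fell (Myf5, Srf and Tead1), the falls being near the share over all genes. The differentiation factor Myog was at 17310.5 ± 7525 in GFP and 23058 ± 7794 in Cre (SD, n = 4 each) and changed by 0.46 ± 0.07 (adjusted p = 0.000726). Myod1 changed by 0.20 ± 0.07 (adjusted p = 0.0425), a call lost in some alternatives with the block (adjusted p up to 0.191). Tead1 changed by -0.21 ± 0.07 (adjusted p = 0.0239, and up to 0.106 without pair 1 or 4 or the intensity trend). All 6 proliferation genes listed (Mki67, Top2a, Ccna2, Ccnb1, Cdk1 and Pcna) fell, with a median of -0.76. Their part in the change of the sarcomere genes was not tested.

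Markers of other cells that a muscle sort could hold were summed per library, in normalised reads. Fibroblast markers gave 178 to 293 in GFP and 655 to 911 in Cre (4 of 5 genes with values), endothelial markers 141 to 182 in GFP and 276 to 408 in Cre (4 of 5 genes with values), macrophage markers 94 to 338 in GFP and 171 to 485 in Cre (3 of 5 genes with values), Schwann cell markers 37 to 110 in GFP and 67 to 77 in Cre (3 of 4 genes with values) and adipocyte markers 0 to 2 in GFP and 1 to 8 in Cre (1 of 3 genes with values). The fibroblast sum followed Col1a1 and Ly6a, which rose, while Dcn had at most 22. Smooth muscle and pericyte markers gave 24921 to 45289 in GFP and 56135 to 87879 in Cre (7 of 7 genes with values), set by Acta2 and by Rgs5, which changed by 2.08 ± 0.06 (adjusted p = 3.52e-08), whereas the defining smooth muscle gene Myh11 had at most 9. Heart muscle cell markers gave 14 to 537 in GFP and 57 to 494 in Cre (3 of 6 genes with values), of which Ryr2 made up 384 and 473 reads in Cre and GFP library 4 and at most 2 elsewhere. Tnni3, the only heart marker that passed the filter, was called higher, by 0.96 on the log2 scale and in 4 of 4 pairs. The part of all these markers in the sarcomere values was not tested.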

How the data were processed

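RNA-seq of 8 libraries (4 Cre, 4 GFP) was used. Per the submitters' processing notes, the tools were STAR 2.5.3a, featureCounts 1.5.3, Subread and DESeq, and the builds mm10 and GRCm38; their settings, annotation release and use of strand are not given here. The deposited values, treated as a score, appear to be gene-level counts after scaling and rounding, judged from the values: totals were nearly equal, median-ratio factors lay between 1.000 and 1.011, and some low whole numbers never occur. A count model was therefore not used.

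Values were tested as log2(value + 1) with limma 3.58.1 (R 4.3.3), with an intensity trend and the replicate number as a block, on 12910 genes with at least 4 libraries at 1 CPM; fold changes on this scale understate low genes. P-values are two-sided and adjusted by Benjamini-Hochberg over all tested genes, with a threshold of 0.05. The block follows the replicate numbers in the titles: same-numbered libraries correlated at 0.82 to 0.908 in their deviations from group means, others at -0.597 to 0.477. The labels do not state the pairing. Totals of scaled values do not give sequencing depth, which is unknown, so no counting interval is given.

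Lengths came from GENCODE M21 (GRCm38), which held all 39 sarcomere genes with values. The alternatives were no block, pseudocounts of 0.1 and 5, no filter and 5 CPM, rescaling to totals or upper quartiles, voom, no trend, and omission of each pair. Python 3.11.15 with pandas 2.3.3 and scipy 1.17.1 made tables and figures. The rule named every listed sarcomere gene and, from each other list, up to 4 of the tested genes with the most reads; other genes named, such as Mylk2, Actg1 and members of lists that fell or rose in small number, were chosen after their values were seen. Genes and lists were chosen with earlier results of these data known.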

Additional observations from a re-analysis of the deposited data

How the results depend on the processing

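The paired count of 28 sarcomere genes higher and 2 lower depended most on the pairing. With no replicate block, limma called 0 higher and 0 lower (1 gene at an unadjusted p under 0.05), and 1 higher and 0 lower of the other sarcomere-associated genes, which were 23 and 1 with the block. Over all genes tested, the share called in either direction went from 43.9% with the block to 1.08% without it. Adjusted calls were therefore lost across all genes. At an unadjusted p under 0.05, the limma fit without the block called 16.7% of all genes but 2.86% of the sarcomere genes. Without the intensity trend the counts were 17 higher and 1 lower, and 0 lower of the other genes. With upper-quartile rescaling 1 fell (other genes 0), and with no filter 1 fell. Leaving out a pair gave 17 to 25 higher and 0 to 1 lower, and 18 to 22 and 0 to 1 of the other genes; fewer libraries remain in each such fit, which called 17.5% to 20.5% of all genes higher and 16.3% to 18.4% lower. Pseudocounts, the 5 CPM filter (which 34 genes passed), total rescaling and voom left the counts within 1.5 times the main ones. Of 452 single-gene values under the alternatives, 2 changed sign, both for Obsl1: 0.0015 with upper-quartile rescaling and 0.0376 without pair 3, in a range of -0.0939 to 0.0376 when a pair was left out. With the block, 16 of the 28 genes that rose, and neither that fell, kept their calls in each alternative that tested them. Myl2 and Myot in pairs 1 and 4 and the 4 genes below the filter are limited by low values.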
